A study of Mus musculus with 29 samples.

Results

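The genes of the elastic fibre were followed in mouse ovary from fetal life to adulthood. The set was taken by name from the table of RNA-seq counts: Eln, Fbn1, Fbn2, Fbln1, Fbln5, Lox, Loxl1, Mfap2, Mfap4 and Mfap5. Each matched 1 gene ID, so these are 10 genes of the 51912 gene IDs in the table. They were listed for their place in the elastic fibre, with earlier results of these data known, so the choice was not independent of them. Eln was also chosen by its measured level, which falls steeply between postnatal day 8 and 12 weeks. For that reason the Eln values over that age step are described without a test.

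The study sequenced total RNA of ovary cells, dissociated with papain, in fetuses of embryonic days 13.5 and 18.5 (E13.5, E18.5), in pups at postnatal day 8 (PND8) and in adults of 12 weeks (12wk). Wild-type mice (Cdkn1b +/+) gave 4 samples at each of these 4 ages. Cdkn1b-null mice (Cdkn1b -/-), which carry no functional copy of the gene for p27Kip1, a cell cycle inhibitor that acts on cyclin-dependent kinases, gave 4 samples at E18.5 and 3 at every other age. That makes 29 samples in 8 groups, and per the submitters the design addresses cell cycle regulation in ovarian development. The labels give no strain, agent or treatment, and do not say how many animals went into a sample, so p-values measure the spread between these samples, which may be partly technical.

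Elastic fibres give tissues their recoil. Cells secrete tropoelastin, the product of Eln, onto a scaffold of microfibrils made of the fibrillins (Fbn1, Fbn2), with which the small microfibril-associated proteins Mfap2 and Mfap5 (also called MAGP1 and MAGP2) and the glycoprotein Mfap4 associate. Fibulins bring tropoelastin to the microfibril, and the copper-dependent lysyl oxidases Lox and Loxl1 oxidise its lysines so that the chains become cross-linked. In the ovary, microfibrils lie in the stroma and in the wall of vessels and follicles, where fibrillins also bind latent TGF-beta family ligands. Elastin itself is made mostly around birth in most organs.

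On GRCm38 with GENCODE M21, Eln spans chr5:134702593-134747323 on the minus strand, Fbn1 chr2:125300594-125507993 minus, Fbln1 chr15:85205949-85286535 plus, Fbln5 chr12:101746565-101819055 minus, Loxl1 chr9:58287738-58313186 minus, Mfap2 chr4:141010418-141015984 plus, Mfap4 chr11:61485431-61488900 plus and Mfap5 chr6:122505845-122529290 plus, while Fbn2 and Lox lie on chromosome 18. Counts cover all exons of a gene together, untranslated ones included. Eln, Fbn1 and Fbn2 overlap antisense genes that reached at most 1.21, 1.7 and 2.43 CPM in any library. Exons of Lox also overlap an antisense gene, whose level is not given here.

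Library depth ran from 14.1 to 48.21 M counts, with 14.1 to 24.86 M in the fetal libraries and 24.07 to 48.21 M in the postnatal ones. Levels below are CPM, the count divided by library size with TMM scaling over all samples. A floor of 3 counts, chosen here, equals 0.0622 to 0.2128 CPM, and lower levels do occur. Intervals and floors of this kind cover counting error only. Cdkn1b was at 19.2 to 260 CPM in the wild-type libraries and at 4.3 to 80.7 CPM in the libraries labelled null, with no overlap within any age. The edgeR adjusted p of that difference was 0.0114, 1.12e-05 and 0.0216 at the 3 younger ages, and 0.211 at 12wk, where it missed the threshold. Counts remained in the null libraries, and the sources used here do not say which exons it lacks. Of 8 granulosa cell markers, 7 were higher at PND8 than at E18.5 in wild type and 1, Lgr5, was lower. Foxl2 averaged 9.21 CPM in wild type at E13.5 and 489 CPM at PND8, and Lgr5 averaged 45.9 and 13.8 CPM. Markers of mesonephros and oviduct (8 genes) summed to 35.6 to 212 CPM at E13.5, 6.35 to 55.1 CPM at E18.5 and at most 6.3 CPM later. One E13.5 wild-type library (replicate 3) had 18.97% of its counts in haemoglobin genes, and one 12wk null library (replicate 4) stood apart in vessel markers, as given with the 12-week results. These are samples of dissociated ovary cells of mixed types. Fewer cells of a type, poorer recovery on dissociation and less RNA per cell cannot be told apart.

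The microfibril gene Mfap2 had the highest level per kilobase of exon of the 10 genes in all 8 groups. In E13.5 wild type it stood at 372 ± 129 CPM per kilobase (SD, n = 4), which was 70.8% of the summed level of the 10 genes on that scale. Mfap4, Fbln1 and Loxl1 followed there with 55, 38 and 30.1 CPM per kilobase. Eln, the gene of the elastic protein itself, was next to last at 2.33 CPM per kilobase and Mfap5 last at 0.744. The same 4 genes led at E18.5, when Mfap2 reached 698 ± 83.6 CPM per kilobase (SD, n = 4) and its share was 61.7%.

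By PND8 the make-up was different. Over that step the levels of all genes moved with exon length, as given below, and fetal libraries held fewer counts than those of PND8. The part of length or depth in the change was not tested. Mfap2 was down to 193 ± 7.69 CPM per kilobase and 30.4% of the sum in wild type, with Mfap4 next at 165 ± 17.5 (SD, n = 4 for both). Fbn1 at 62.2 ± 16.7 and Fbn2 at 61.4 ± 10.9 CPM per kilobase followed and did not differ beyond their spread. Eln had its highest level there, 29 ± 0.999 CPM per kilobase (SD, n = 4), 4.57% of the sum, though its PND8 level entered its choice. At 12wk the order in wild type was Mfap2 (72.1), Fbln1 (55), Fbn1 (31.3), Fbn2 (20.9) and Mfap4 (20.9 CPM per kilobase), and the SDs of Mfap2 (13.9) and Fbln1 (14.3) made those leading levels overlap. The Cdkn1b-null groups had the same 4 leading genes at E13.5 and E18.5, with Mfap2 at 70.2% and 63.3% of the sum.

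**Figure D1:**
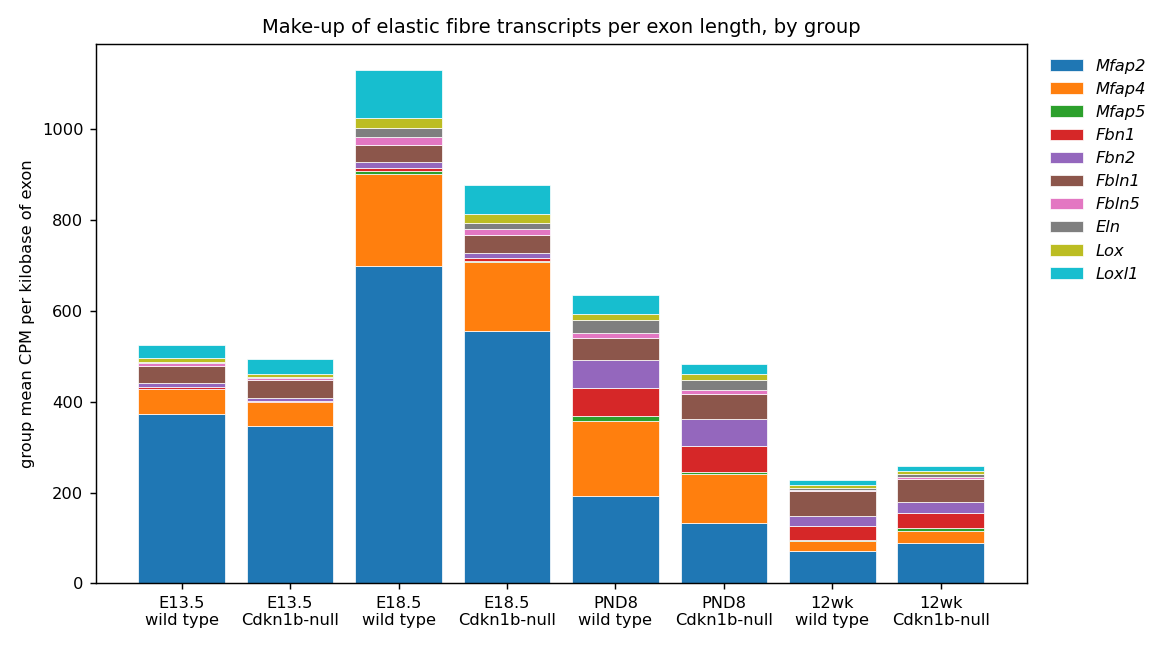
Stacked bars show the mean level of each of the 10 genes in CPM per kilobase of annotated exon (y axis) in the 8 groups (x axis, n = 3 or 4 libraries each). The bars are tallest at E18.5, where Mfap2 makes up 61.7% in wild type and 63.3% in Cdkn1b-null, and the fibrillin segments are widest at PND8; spreads are given in the text.

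Eln rose before birth. In the E13.5 wild-type libraries (replicates 1 to 4) it was at 20.1, 26.5, 18.6 and 10.2 CPM, and in those of E18.5 at 130, 119, 188 and 225 CPM. The groups did not overlap, and the log2 difference was 3.12 ± 0.304 (SE, edgeR adjusted p = 7.32e-05). At PND8 the 4 libraries lay close together at 243, 225, 232 and 240 CPM. Of the E18.5 libraries, 3 were clearly below them, and the difference from E18.5 did not pass the test (log2 difference 0.42 ± 0.186, edgeR adjusted p = 0.064). That test uses the PND8 libraries by which Eln was picked. The 12wk libraries were at 31.9, 32.2, 40.2 and 36.6 CPM, and the mean there was 0.15 of the PND8 mean. The log2 difference in the fit, -2.65, is a description because Eln was chosen for it.

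In Cdkn1b-null ovaries Eln was at 18.4, 43 and 13.9 CPM at E13.5 (replicates 1, 3 and 4) and at 94.9, 100, 109 and 113 CPM at E18.5. Again the groups were separate, with a log2 rise of 2.05 ± 0.366 (SE, edgeR adjusted p = 0.00576), which was 2.68 without E13.5 null replicate 3. The PND8 libraries were at 224, 183 and 132 CPM, each above every E18.5 null library (log2 difference 0.73 ± 0.15, edgeR adjusted p = 0.00148). This test too uses PND8 libraries, whose Eln levels entered the choice of the gene. At 12wk they were at 42.6, 30.1 and 103 CPM, so replicate 4 stood at more than the others and the described log2 difference from PND8 was -1.49. Without that library it was -2.23.

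**Figure D2:**
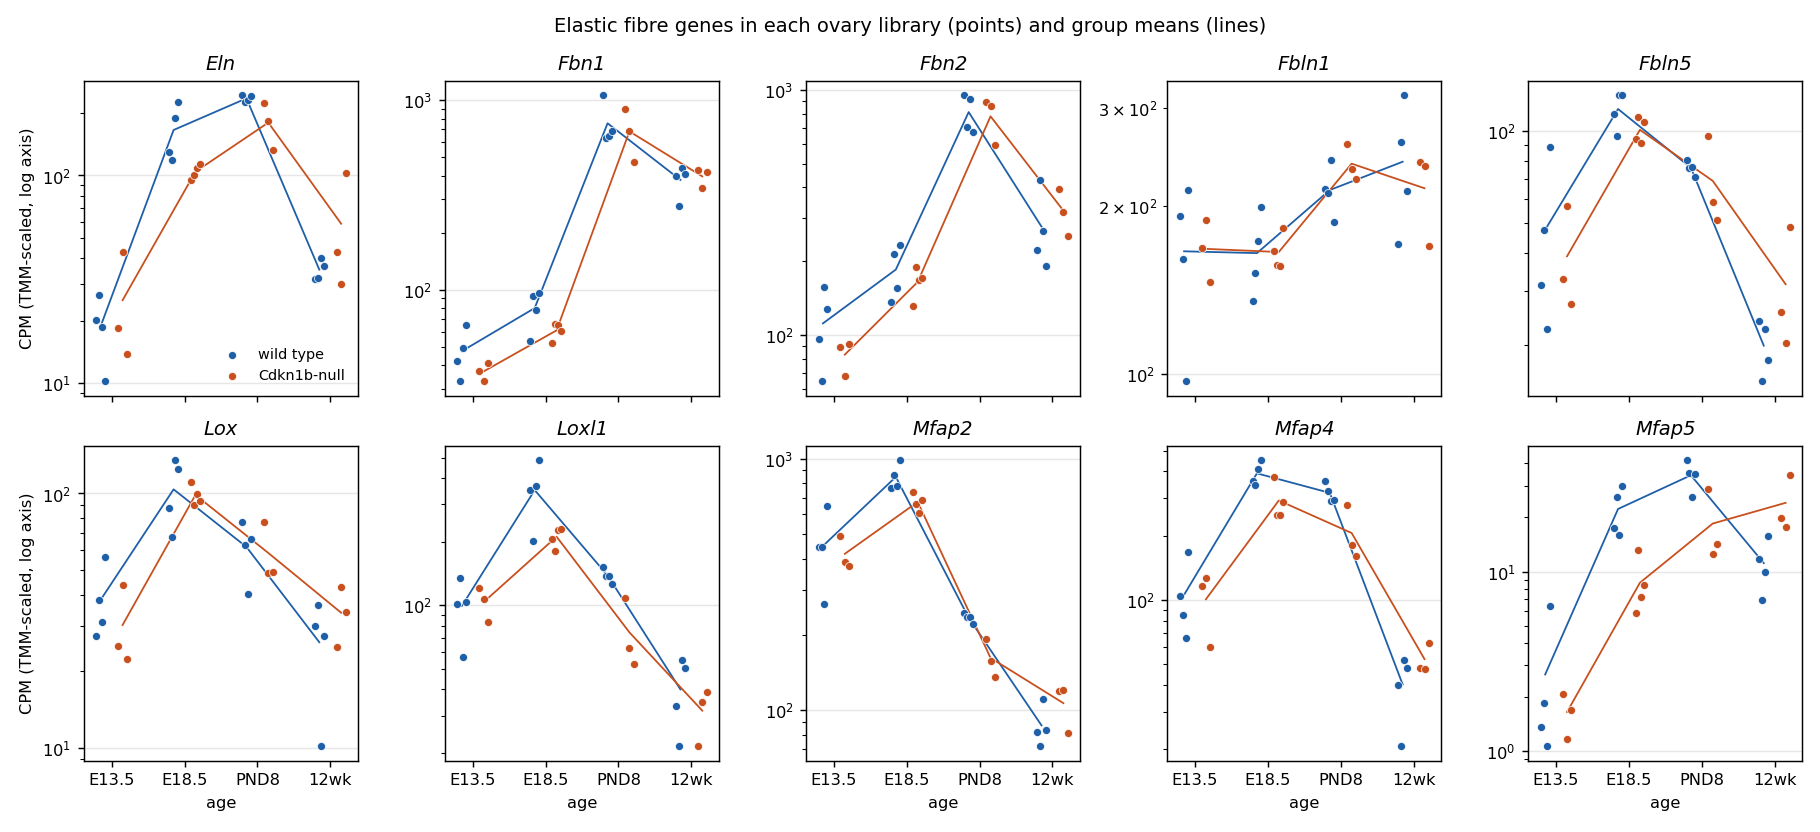
Each panel plots 1 gene: points are single libraries (blue wild type, orange Cdkn1b-null), lines join group means, the x axis is age and the y axis is TMM-scaled CPM on a log axis. In wild type the highest mean is at PND8 for Eln, Fbn1, Fbn2 and Mfap5, at E18.5 for Mfap2, Mfap4, Fbln5, Lox and Loxl1, and Fbln1 stays within 97 to 316 CPM throughout.

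The fibrillins rose together after birth. Fbn1, the main fibrillin of adult tissues, was at 42, 33, 49 and 65.5 CPM in E13.5 wild type and at 53.7, 92.8, 77.7 and 95.8 CPM at E18.5. These ranges overlapped, though the difference passed the test (log2 difference 0.75 ± 0.235, edgeR adjusted p = 0.0322). That call was lost in 5 of the 8 fits that left out 1 library (adjusted p up to 0.0873): without E18.5 replicate 2, 3 or 4, or without E13.5 replicate 1 or 2. At PND8 the values were 1060, 633, 643 and 684 CPM, all far above the fetal ones, with replicate 1 apart from the other 3. The mean was 9.43 times that at E18.5 (log2 difference 3.15 ± 0.252, edgeR adjusted p = 1.64e-06). The adult libraries held 396, 277, 437 and 408 CPM, lower than every PND8 library (log2 difference -0.91 ± 0.213, edgeR adjusted p = 0.012) and still above every fetal one.

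Fbn2, the fibrillin associated with developing microfibrils, had a higher level per kilobase than Fbn1 before birth. It was at 96.8, 64.7, 157 and 128 CPM in E13.5 wild type and at 137, 215, 156 and 232 CPM at E18.5, where the ranges overlapped and the step missed the threshold (log2 difference 0.72 ± 0.273, edgeR adjusted p = 0.0663). PND8 brought 950, 703, 921 and 673 CPM, a log2 rise of 2.04 ± 0.211 (edgeR adjusted p = 9.74e-06) with no overlap. It then fell to 223, 428, 265 and 191 CPM at 12wk (log2 difference -1.47 ± 0.255, edgeR adjusted p = 0.00333). Replicate 2 was the highest adult library and remained below the lowest PND8 library.

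Per kilobase, Fbn2 exceeded Fbn1 in E13.5 wild type (8.44 ± 3 against 3.9 ± 1.13) and at E18.5 (14 ± 3.45 against 6.6 ± 1.58), equalled it within the spread at PND8, and was at 20.9 ± 7.97 against 31.3 ± 5.8 at 12wk (SD, n = 4 throughout). The null groups gave Fbn2 and Fbn1 levels of 6.3 and 3.06 at E13.5, 12.5 and 5.03 at E18.5, 59 and 56.4 at PND8, and 24.3 and 32.7 CPM per kilobase at 12wk. The order of the pair at 12wk was thus the reverse of the fetal order in the means of both genotypes; this change of order was not tested. In the null libraries Fbn1 lay at 32.8 to 41.1 CPM at E13.5, 52.2 to 65.9 at E18.5, 470 to 897 at PND8 and 344 to 426 at 12wk, and Fbn2 at 68 to 91.9, 131 to 190, 595 to 889 and 254 to 393 CPM.

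Mfap2 followed a different course from the fibrillins it binds. It was already abundant at E13.5 with 445, 445, 264 and 646 CPM in wild type, and reached 761, 858, 780 and 984 CPM at E18.5, above every E13.5 library (log2 difference 0.9 ± 0.226, edgeR adjusted p = 0.0111). At PND8 it had dropped to 243, 235, 235 and 220 CPM, 0.276 of the E18.5 mean (log2 difference -1.95 ± 0.124, edgeR adjusted p = 4.04e-07). The adult libraries were lower again at 82.4, 71.9, 111 and 83.4 CPM (log2 difference -1.33 ± 0.127, edgeR adjusted p = 0.000206). The ranges of neighbouring ages did not overlap in any of the 3 steps.

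Mfap4, a fibrinogen-related glycoprotein that binds tropoelastin and fibrillin, was still high at PND8. Its wild-type values were 104, 85.1, 66.4 and 167 CPM at E13.5, 362, 345, 408 and 450 at E18.5, 362, 324, 289 and 293 at PND8, and 39.8, 20.6, 52.2 and 48.2 at 12wk. The rise before birth (log2 difference 1.88 ± 0.246, edgeR adjusted p = 0.000351) and the fall after PND8 (log2 difference -2.89 ± 0.27, edgeR adjusted p = 0.000208) separated the groups completely. Between E18.5 and PND8 the log2 difference was -0.39 ± 0.126 (edgeR adjusted p = 0.0163), and that call was lost without PND8 replicate 3, PND8 replicate 4 or E18.5 replicate 4. Exons of Mfap4 overlap those of the antisense gene Mapk7, which reached at most 85.9 CPM in any library, and the strandedness of counting is not given, so the Mfap4 values are uncertain by up to that gene's reads.

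Mfap5 had the lowest level of the 10 genes at E13.5 and rose before birth. It was at 1.36, 1.85, 1.06 and 6.41 CPM in E13.5 wild type, all above the 3-count floor, with replicate 4 far from the other 3. At E18.5 it was at 17.4, 26.1, 15.9 and 29.8 CPM (log2 difference 3.03 ± 0.529, edgeR adjusted p = 0.00174). Without E13.5 replicate 4 the log2 difference was 3.93. PND8 gave 41.6, 35.2, 25.9 and 34.8 CPM, which overlapped E18.5 (log2 difference 0.53 ± 0.233, edgeR adjusted p = 0.0612). It fell to 11.8, 6.96, 9.99 and 15.8 CPM at 12wk (log2 difference -1.54 ± 0.254, edgeR adjusted p = 0.00265).

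The 2 fibulins moved in different ways. Fbln5, which binds tropoelastin and lysyl oxidase-like enzymes and is needed for elastic fibre assembly, was at 31.5, 47.5, 22.6 and 88.9 CPM in E13.5 wild type and at 114, 96.8, 131 and 131 CPM at E18.5 (log2 difference 1.31 ± 0.351, edgeR adjusted p = 0.017). It then fell to 80.5, 76, 76.6 and 70.7 CPM at PND8 (log2 difference -0.73 ± 0.112, edgeR adjusted p = 0.00017) and to 24, 15.2, 22.6 and 17.8 CPM at 12wk (log2 difference -1.85 ± 0.139, edgeR adjusted p = 7.69e-05). Both falls left no overlap between the ages.

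Fbln1, found in basement membranes as well as elastic fibres, passed the test in no wild-type step. Its wild-type values were 192, 161, 97 and 214 CPM at E13.5, 134.7, 152, 173 and 199 at E18.5, 215, 211, 242 and 187 at PND8, and 171, 261, 316 and 213 at 12wk. The ranges of neighbouring ages overlapped each time. The log2 differences were -0.02 ± 0.217, 0.28 ± 0.138 and 0.26 ± 0.177 (edgeR adjusted p = 0.959, 0.0858 and 0.309), and the middle one was called only without PND8 replicate 4 or without E18.5 replicate 4. In the null libraries it rose from 156 to 183 CPM at E18.5 to 224 to 258 CPM at PND8 (log2 difference 0.47 ± 0.0857, edgeR adjusted p = 0.00055), and this difference of the step between genotypes, 0.17 ± 0.277 on the log2 scale, did not pass the interaction test (edgeR adjusted p = 0.896).

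Both cross-linking enzymes had their highest wild-type mean at E18.5, while that of Eln, their substrate's gene, was at PND8. Eln was chosen by its levels at PND8 and 12wk, and its step from E18.5 to PND8 missed the threshold (edgeR adjusted p = 0.064). A contrast in timing was therefore not tested. Lox was at 27.4, 38.2, 31.2 and 56 CPM in E13.5 wild type and at 87.9, 67.4, 134.9 and 125 CPM at E18.5 (log2 difference 1.43 ± 0.26, edgeR adjusted p = 0.00217). At PND8 it was at 77.1, 62.9, 40.3 and 66.1 CPM, overlapping E18.5 through 1 library (log2 difference -0.83 ± 0.246, edgeR adjusted p = 0.0102). The adult values were 30.1, 36.3, 10.1 and 27.4 CPM (log2 difference -1.16 ± 0.362, edgeR adjusted p = 0.0393), and this last call was lost without 12wk replicate 1 or 4, or PND8 replicate 1, 2 or 4.

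Loxl1, the family member most closely tied to elastin, ran higher than Lox per kilobase in all 8 groups: 106 against 21.7 in E18.5 wild type and 12.1 against 5.44 CPM per kilobase in 12wk wild type, for example. Its libraries held 101, 135.3, 56.5 and 104 CPM at E13.5, 350, 202, 366 and 485 at E18.5, 152, 137, 138 and 126 at PND8, and 33.1, 21.4, 54.9 and 50.1 at 12wk in wild type. Each step separated the groups. The log2 differences were 1.81 ± 0.289, -1.43 ± 0.217 and -1.71 ± 0.268 (edgeR adjusted p = 0.00107, 0.00015 and 0.00214).

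The promoter sequences of 3 genes with unlike courses are shown: Mfap2, which fell most over birth, Fbln5, which peaked at E18.5, and Fbln1, which passed the test in no wild-type step. They are from RefSeq on GRCm38.p6, up to 250 bases before the annotated start and outside the annotated gene, 5′ to 3′ on the gene's strand, and capitals mark motif matches on either strand.
Mfap2, chr4:141010174-141010417, plus strand: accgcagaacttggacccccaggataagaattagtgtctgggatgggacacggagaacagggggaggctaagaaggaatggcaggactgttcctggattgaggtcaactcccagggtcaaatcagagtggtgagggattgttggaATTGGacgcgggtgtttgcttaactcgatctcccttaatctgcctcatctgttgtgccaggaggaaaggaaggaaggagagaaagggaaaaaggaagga
Fbln5, chr12:101819120-101819369, minus strand: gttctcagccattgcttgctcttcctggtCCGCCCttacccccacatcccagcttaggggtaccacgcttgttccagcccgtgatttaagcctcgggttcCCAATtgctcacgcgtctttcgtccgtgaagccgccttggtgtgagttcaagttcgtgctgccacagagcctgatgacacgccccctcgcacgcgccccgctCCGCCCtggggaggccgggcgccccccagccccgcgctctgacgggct
Fbln1, chr15:85205699-85205948, plus strand: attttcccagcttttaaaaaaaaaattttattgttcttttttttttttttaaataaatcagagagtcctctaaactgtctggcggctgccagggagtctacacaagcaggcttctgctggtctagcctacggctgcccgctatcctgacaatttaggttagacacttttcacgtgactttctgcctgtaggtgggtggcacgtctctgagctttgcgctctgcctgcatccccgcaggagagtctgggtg
The motif search covered both strands. CCAAT is in 33.8% of 32851 mouse promoters over 250 bases and had 1 match each for Mfap2 and Fbln5. GGGCGG, in 32.7% of promoters, had 2 matches for Fbln5. TATAAA (12.4%), TGANTCA (6.7%) and the CArG box, the serum response element (1.5%), had no match in these 3 windows, and Fbln1 matched none of the 5. The GC content was 51.2% for Mfap2, 65.2% for Fbln5 and 46.4% for Fbln1. The other promoters, those of Eln, Fbn1, Fbn2, Lox, Loxl1, Mfap4 and Mfap5, are not shown.

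Across the wild-type series, 8 of the 10 genes were called higher at E18.5 than at E13.5 and 0 lower, where 34% of 16603 genes tested were called and 16.6% called higher. The median log2 difference of the 10 was 1.37, against 0.007 for all genes. From E18.5 to PND8, 2 were called higher (the fibrillins) and 5 lower (Fbln5, Lox, Loxl1, Mfap2, Mfap4), where 74.6% of all genes were called, 37.6% higher and 36.9% lower. The members' share was thus near the background in that step. From PND8 to 12wk, 8 of the 9 genes other than Eln were called lower and 0 higher, where 30.5% of all genes were called and 14.3% called lower. The remaining gene was Fbln1. DESeq2 called 9 higher and 0 lower in the E13.5 to E18.5 step, and 8 lower and 0 higher of the 9 from PND8 to 12wk.

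Complete separation of the libraries, after scaling within each pair of groups, held in wild type for 7 of the 10 genes between E13.5 and E18.5 (34.7% of all genes tested). Eln is left out of the other steps, since its PND8 levels entered the choice. Of the other 9 genes, 6 were separate between E18.5 and PND8 (70.8% of all genes) and 8 between PND8 and 12wk (33.3%). In Cdkn1b-null libraries it held for 9 of 10 in the first step (40%), and for 6 of the 9 in each of the others (77.7% and 47.3%). The CPM printed above were scaled over all samples, so ranges given there can overlap for a gene counted as separate here.

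Exon length moved with the step over birth. Among all genes tested, the median log2 difference from E18.5 to PND8 in wild type was -0.58 for genes with under 1.5 kilobases of exon, -0.49 at 1.5 to 3, 0.02 at 3 to 6, 0.45 at 6 to 10 and 0.81 for 10 or more kilobases. The 2 longest members, Fbn1 with 12.13 and Fbn2 with 13.21 kilobases, were the 2 called higher, and the shortest, Mfap2 with 1.21 kilobases, fell the most. Their log2 differences (3.15, 2.04 and -1.95) were further from 0 than the medians of their length classes (0.81, 0.81 and -0.58). Eln, with 8.1 kilobases, stood at 0.42 where its class had 0.45, and Mfap4, with 1.92 kilobases, at -0.39 where its class had -0.49. In the null genotype the same medians ran from -0.65 to 1. The other steps had no such gradient in wild type, with medians between -0.11 and 0.05. The part of length in these members' values was not tested.

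**Figure D3:**
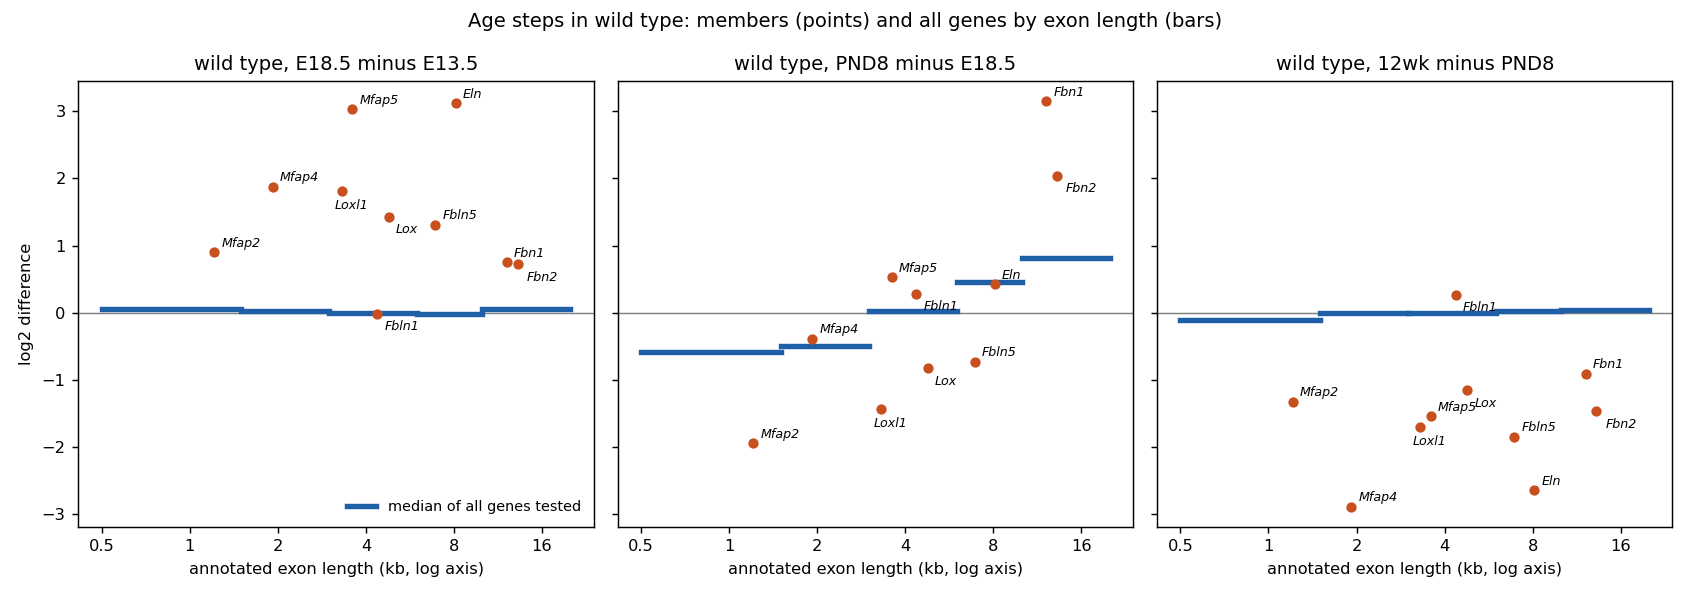
Orange points are the 10 genes and blue bars the median of all genes tested in 5 classes of exon length, with log2 difference on the y axis and annotated exon length in kilobases on a log x axis, for the 3 wild-type steps. In the step from E18.5 to PND8 the blue bars rise from -0.58 to 0.81 with length, while in the others they stay between -0.11 and 0.05; Eln in the right panel is shown as a description.

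Cell type markers also changed with age. The shares of all genes called in the 3 wild-type steps, 34%, 74.6% and 30.5%, are the background of these counts. Of 11 smooth muscle markers, 6 were called higher and 2 lower from E13.5 to E18.5 in wild type, 9 higher and 0 lower from E18.5 to PND8, and 0 either way from PND8 to 12wk. Of 8 stromal fibroblast markers, 2 were called higher and 1 lower, then 5 higher and 2 lower, and then 0 higher and 4 lower. The summed stromal level ran from 9480 to 13000 CPM at PND8 and from 3030 to 5840 CPM at 12wk in wild type, so it fell over the same step as 8 of the 9 elastic fibre genes tested there. The part of cell make-up in the age differences was not tested.

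The Cdkn1b-null ovaries went through the same steps. Between E13.5 and E18.5, 9 genes were called higher and 0 lower, where 30.2% of all genes were called and 15.8% called higher; Fbln1 was the other. From E18.5 to PND8 all 10 were called, 5 higher (Eln, Fbn1, Fbn2, Fbln1, Mfap5) and 5 lower (Fbln5, Lox, Loxl1, Mfap2, Mfap4), where 77.4% of all genes were called, 38.9% higher and 38.5% lower. Eln is counted there, though its PND8 levels entered its choice. Of the 10 calls, each was lost without 1 library for Fbln5 (PND8 replicate 3 or 4), Mfap4 (PND8 replicate 3 or 4, or E18.5 replicate 1 or 4) and Mfap5 (PND8 replicate 1, or E18.5 replicate 1 or 3). From PND8 to 12wk, 3 of the 9 genes other than Eln were called lower and 0 higher, where 29.1% of all genes were called, 14.8% higher and 14.3% lower. Those 3 were Fbn2 (log2 difference -1.19 ± 0.201, edgeR adjusted p = 0.00631), Mfap4 (-1.86 ± 0.24, 0.00296) and Loxl1 (-1.13 ± 0.33, 0.0456), and Loxl1 was lost in 5 of the 6 fits without 1 library, all but that without PND8 replicate 4. DESeq2 called 7 of the 9 lower in that step.

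Mfap5 had the widest gap between the genotypes in this last step. It fell by 1.54 on the log2 scale in wild type from PND8 to 12wk, while the null libraries were at 28.7, 12.5 and 14.3 CPM at PND8 and at 19.9, 17.8 and 34.7 CPM at 12wk, which overlap (log2 difference 0.49 ± 0.407, edgeR adjusted p = 0.415). The difference between those steps was 2 ± 0.602 on the log2 scale and did not pass the test over all genes (edgeR adjusted p = 0.254). For Mfap4 it was 1.02 ± 0.407 (adjusted p = 0.487) and for Mfap2 0.82 ± 0.28 (adjusted p = 0.36). For Eln the described difference was 1.12, and 0.43 without 12wk null replicate 4.

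Whether the genotype effect varied among the ages was tested with 3 interaction coefficients together. By edgeR 0 of the 9 genes other than Eln were called, where 0.806% of 20359 genes were, and 2 of the 9 (Mfap5 and Mfap2) had an unadjusted p under 0.05, as 12.7% of all genes did. Mfap5 came nearest (edgeR adjusted p = 0.103), followed by Mfap2 (0.359), Mfap4 (0.454) and Loxl1 (0.516). DESeq2 called Mfap5, and so did edgeR without E13.5 wild-type replicate 4. For single steps, edgeR called 0 of 10 genes in each of the 2 earlier differences between genotypes, where 0.653% and 0.329% of all genes were called, and 0 of 9 in the last, where 0.0246% were. In the last, 3 of the 9 (Mfap5, Mfap4 and Mfap2) had an unadjusted p under 0.05, as 7.47% of all genes did. For the earlier 2, the widest difference was that of Eln from E13.5 to E18.5 (-1.11 ± 0.481, edgeR adjusted p = 0.371, unadjusted p = 0.0292). It was -0.46 without E13.5 null replicate 3, closer to 0 than the -0.78 of Loxl1 in that fit, and that of Mfap5 went from -0.64 to -1.56 without E13.5 wild-type replicate 4. Eln was the one gene of the 10 with an unadjusted p under 0.05 in those 2 tests (11.4% and 8.74% of all genes), and DESeq2 called 0 in all 3.

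At E13.5 edgeR and DESeq2 each called 0 of the 10 genes between genotypes, and 0 had an unadjusted p under 0.05. Over all genes 0.00606% were called by edgeR, which is 1 gene, Cdkn1b. The log2 differences, null minus wild type, lay between -0.72 ± 0.644 (Mfap5) and 0.37 ± 0.427 (Eln), and the libraries of the genotypes overlapped for each gene. The Eln difference was -0.25 without null replicate 3, and that of Mfap5 was 0.17 without wild-type replicate 4. Leaving out the latter library also put Fbln1 (0.13), Fbln5 (0.17), Mfap2 (0.09) and Mfap4 (0.21) above 0. At E18.5 all 10 differences were below 0, from -1.4 (Mfap5) to -0.02 (Fbln1), with a median of -0.39. Over all genes the median was -0.042 and 55.3% of the differences were below 0.

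Of the 10 genes, 7 had an unadjusted edgeR p under 0.05 at E18.5, as 22.1% of all genes did. Mfap5 was the 1 member called there, where 4.99% of all genes were called and 1.67% called lower. Its null libraries held 5.91, 13.1, 7.21 and 8.41 CPM, below each of the wild-type values of 17.4, 26.1, 15.9 and 29.8 CPM, and the null mean was 0.388 of the wild-type mean. The log2 difference was -1.4 ± 0.277 (SE, edgeR adjusted p = 0.0176). Over the 8 fits that left out 1 library it ranged from -1.66 to -1.23, with adjusted p from 0.00975 to 0.078, and the call was lost without wild-type replicate 4, null replicate 3 or null replicate 4.

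Eln and Mfap2 also had no overlap at E18.5, as 14.5% of all genes did, but did not pass the test. For Eln the null libraries (94.9 to 113 CPM) lay below the wild-type ones (119 to 225 CPM), with a log2 difference of -0.69 ± 0.181 (edgeR adjusted p = 0.0526). Mfap2 was at 738, 662, 606 and 685 CPM in the null libraries, with a log2 difference of -0.36 ± 0.112 (edgeR adjusted p = 0.0891). Loxl1 was at 205, 181, 228 and 230 CPM against 202 to 485 CPM in wild type (log2 difference -0.76 ± 0.214, edgeR adjusted p = 0.0712), and Mfap4 at 378, 251, 251 and 288 against 345 to 450 CPM (log2 difference -0.45 ± 0.143, edgeR adjusted p = 0.0951). DESeq2 called Eln, Loxl1, Mfap2, Mfap4 and Mfap5, all lower. The fibrillins, Fbln5 and Lox had adjusted p between 0.17 and 0.795.

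The smooth muscle and stromal marker lists were also lower, as were others given below. The 11 smooth muscle markers summed to 454 to 573 CPM in E18.5 wild type and to 330 to 434 CPM in null, without overlap, and 9 of the 11 differences were below 0 with 2 called lower. The 8 stromal fibroblast markers summed to 3930 to 6710 CPM and 3440 to 5330 CPM, with all 8 differences below 0 and 2 called lower. Their medians were -0.39 and -0.41 on the log2 scale, beside -0.39 for the elastic fibre genes. Pericyte (5 of 6 differences below 0, median -0.47), germ cell (5 of 5, -0.61) and erythroid markers (6 of 6, -0.78) were lower too. So were surface epithelium (5 of 6, -0.22) and macrophage markers (5 of 5, -0.21), and each of these further lists had 0 called. Granulosa and theca markers were split. Of 7 granulosa markers tested, 4 were above 0 and 3 below, with 2 called higher and a median of 0.19. Of 5 theca markers tested, 3 were above 0 and 2 below, with 1 called higher and a median of 0.22. Endothelial differences were above 0 for 7 of 8 markers, with 0 called by edgeR and 0 at an unadjusted p under 0.05. For mesonephros and oviduct, 3 of 5 were above 0, with a median of 0.52 and 0 called. The part of cell make-up in the difference was not tested.

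PND8 gave a similar picture with no call. By edgeR 0 of 10 genes were called, where 0.349% of all genes were (0.045% higher and 0.304% lower), 5 had an unadjusted p under 0.05 (15% of all genes), and 9 of the 10 differences were below 0 with a median of -0.29, against -0.003 over all genes. Eln is among those 5 and those 9, and its PND8 levels entered its choice. DESeq2 called 4 lower: Loxl1, Mfap2, Mfap4 and Mfap5. Mfap2 came nearest in edgeR, with null libraries at 192, 157 and 136 CPM below all 4 wild-type values of 220 to 243 CPM (log2 difference -0.54 ± 0.107, edgeR adjusted p = 0.0767). Loxl1 was at 108, 62.4 and 52.5 CPM in null, again below the wild-type range of 126 to 152 CPM (log2 difference -0.91 ± 0.227, edgeR adjusted p = 0.147). Mfap4 at 277, 180 and 160 CPM lay below the range of 289 to 362 CPM (log2 difference -0.65 ± 0.183, edgeR adjusted p = 0.175).

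Eln was also below its wild-type range at PND8 (log2 difference -0.4 ± 0.147, edgeR adjusted p = 0.248), in libraries whose Eln levels entered its choice. Without Eln, 3 of 9 genes had no overlap, where 14.7% of all genes had none. In Eln and each of these 3 genes the null replicate 1 was nearest to wild type. Without that library edgeR called 4 genes lower, Loxl1, Mfap2, Mfap4 and Mfap5. Null replicate 1 also had the highest stromal marker sum of its group, 13200 CPM against 8900 and 7650 CPM, while wild type had 9480 to 13000 CPM. All 11 smooth muscle differences were below 0 at PND8 with a median of -0.51 and 0 called by edgeR (2 at an unadjusted p under 0.05), and all 8 stromal ones were below 0 with a median of -0.31 and 1 called lower. The smooth muscle sums overlapped, 701 to 1570 CPM in wild type against 769 to 1020 CPM in null, and the part of either list in the result was not tested.

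At 12wk the signs were mostly the other way. Of the 10 genes 8 had a higher mean in null, with a median log2 difference of 0.33 against -0.004 over all genes, and 0 were called by edgeR or DESeq2, where 0.0115% of all genes were called by edgeR. Mfap5 was the one gene with an unadjusted p under 0.05 and the one without overlap, as 9.69% of all genes were: its null libraries at 17.8 to 34.7 CPM lay above the wild-type ones at 6.96 to 15.8 CPM (log2 difference 1.12 ± 0.343, edgeR adjusted p = 0.417). Among the 8 is Eln, whose 12wk levels entered its choice. Its log2 difference (0.75 ± 0.399, edgeR adjusted p = 0.595) and that of Fbln5 (0.68 ± 0.324, edgeR adjusted p = 0.555) followed. Without null replicate 4 these 3 differences were 0.72, 0.02 and 0.18.

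That library, 12wk null replicate 4, had the highest Eln (103 CPM), Fbln5 (48.8 CPM) and Mfap5 (34.7 CPM) of the adult ovaries. Its 8 endothelial markers summed to 1360 CPM, against 480 to 641 CPM in the other 6 adult libraries, and its 11 smooth muscle markers to 2410 CPM. The other null libraries had smooth muscle sums of 1700 and 1200 CPM, above the wild-type range of 895 to 1130 CPM. All 11 smooth muscle markers were higher on average in null with a median log2 difference of 0.85, 0 called by edgeR and 7 at an unadjusted p under 0.05 (9.63% of all genes). Among them, Acta2 averaged 566 against 316 CPM and Myh11 339 against 178 CPM. The part of vessel and muscle content in the higher Eln, Fbln5 and Mfap5 of adult null ovaries was not tested.

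**Figure D4:**
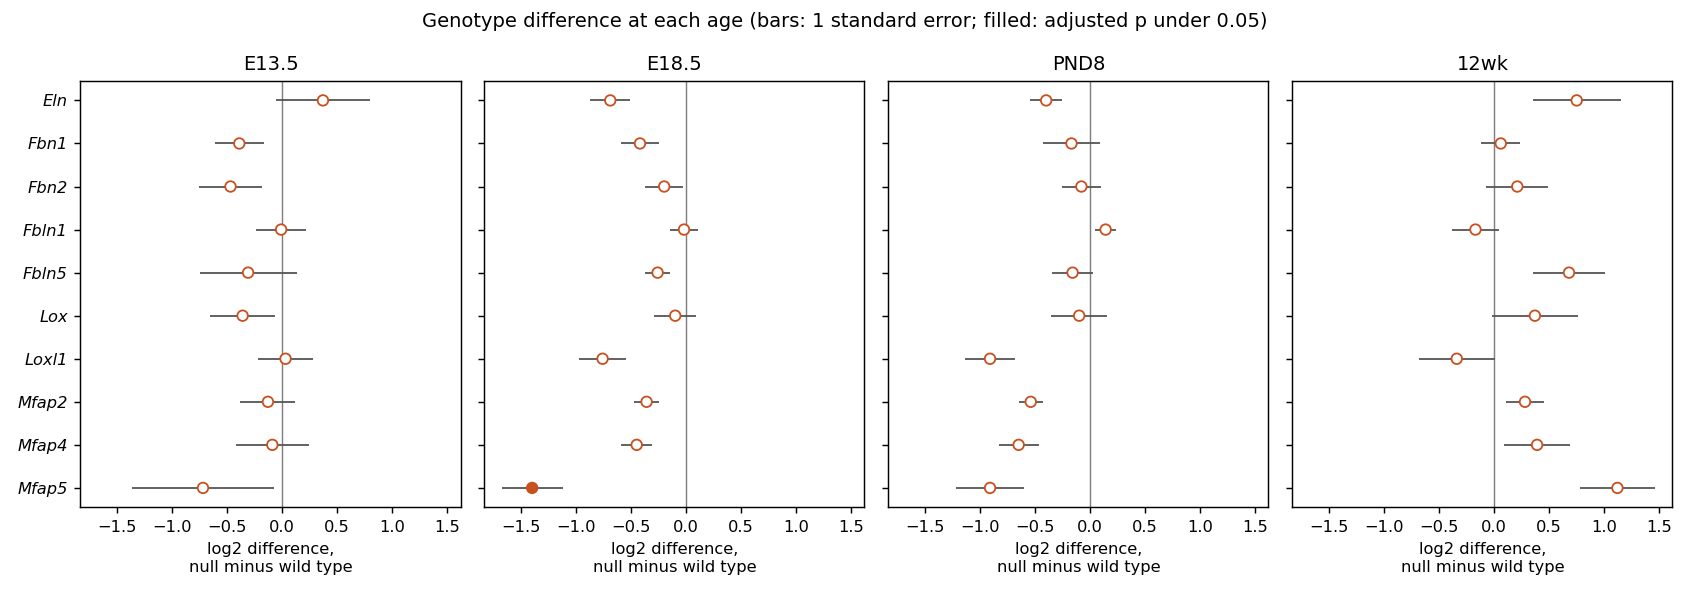
Points give the log2 difference (x axis), Cdkn1b-null minus wild type, of each gene (y axis) in 4 panels for the 4 ages, with bars of 1 standard error. The single filled point, Mfap5 at E18.5 (-1.4), is the one with an edgeR adjusted p under 0.05; all 10 points lie left of 0 in the E18.5 panel, against 9 in the PND8 panel and 2 in adults.

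Other genes of the pathway were described from 4 lists, whose counts stand against the 34%, 74.6% and 30.5% of all genes called in the 3 wild-type steps. Of 25 genes of microfibril and elastic fibre assembly, such as the latent TGF-beta binding proteins, emilins and ADAMTS-like proteins, 8 were called higher and 4 lower from E13.5 to E18.5 in wild type. The median log2 difference of the list was 0.12 there, 1.1 over birth and -0.35 from PND8 to 12wk, where those of all genes were 0.007, 0.006 and -0.008. Ltbp2, which binds fibrillin microfibrils, rose from 0.817 ± 0.58 to 11.2 ± 1.72 CPM (SD, n = 4; log2 difference 3.78 ± 0.447, edgeR adjusted p = 0.000203), a difference of 4.37 without E13.5 replicate 2. Ltbp3 (19.3 to 54.5 CPM) and the small proteoglycan Bgn (88.3 to 247 CPM) rose too, and Thsd4, an ADAMTS-like protein that promotes fibrillin assembly, fell from 25.7 to 5.48 CPM (log2 difference -2.23 ± 0.246, edgeR adjusted p = 0.00013).

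Over birth, 17 of the 25 assembly genes were called higher and 2 lower, a share called near the 74.6% of all genes, of which 37.6% were higher and 36.9% lower. Vcan, the large proteoglycan versican, rose from 17.1 ± 4.16 to 771 ± 88 CPM (SD, n = 4; log2 difference 5.4 ± 0.201, edgeR adjusted p = 3.14e-08). Adamtsl2, whose product binds fibrillin and latent TGF-beta binding proteins, rose from 2.28 to 42.5 CPM, and Emilin3 fell from 80.1 to 34.5 CPM (adjusted p = 5.06e-08 and 0.00311). From PND8 to 12wk 4 were called higher and 7 lower. Postn, a matricellular protein of collagen-rich matrix, fell from 114 ± 8.97 to 14.5 ± 5.51 CPM (SD, n = 4; log2 difference -2.89 ± 0.253, edgeR adjusted p = 0.000159), and Emilin3 from 34.5 to 4.85 CPM (adjusted p = 0.00549). The null genotype gave 7 higher and 2 lower, 16 and 2, and 3 and 5 of the 25 in the same steps, where 30.2%, 77.4% and 29.1% of all genes were called. Mmrn2, an endothelial matrix protein, rose from 11.2 ± 4.68 to 52.3 ± 30.9 CPM in the last of these (SD, n = 3; log2 difference 2.34, edgeR adjusted p = 0.0193). That difference was 1.72 without 12wk null replicate 4, the library with the high endothelial markers, and the call was lost without PND8 null replicate 3 or 4 (adjusted p up to 0.0759).

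For the 10 other enzymes and cofactors of cross-linking and propeptide cleavage, such as Loxl2, Bmp1 and the copper transporter Atp7a, 1 of 8 tested was called higher and 0 lower from E13.5 to E18.5, 5 of 9 higher and 1 lower over birth, and 2 higher and 1 lower of 9 in the last step in wild type, so over birth the share called was near or below the 74.6% of all genes. Of 10 cell surface receptors, integrins and the elastin receptor complex, 3 were called higher and 2 lower, then 6 and 2, then 2 and 1. Median log2 differences were 0.07, 1.5 and 0.28 for the cross-linking list and 0.16, 0.5 and 0.06 for the receptors. Itgb3, a partner of the alpha-v chain, fell from 19.1 ± 9.31 to 2.79 ± 1.46 CPM before birth and rose to 111 ± 18.1 CPM at PND8 (SD, n = 4; edgeR adjusted p = 0.000938 and 3.41e-07). Itga8 fell from 201 to 37.2 and then to 19.4 CPM (adjusted p = 0.00108 and 0.00632).

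Proteases and inhibitors of matrix turnover (14 listed) had 2 of 11 tested genes called higher and 0 lower, then 5 and 3 of 10, then 6 and 2 of 11 in wild type, with medians of 0.59, 0.63 and 0.72. Ctss, an elastin-degrading cathepsin made chiefly by macrophages and other antigen-presenting cells, fell from 23.5 ± 9.38 to 3.3 ± 1.29 CPM over birth and rose to 49.1 ± 9.37 CPM at 12wk (SD, n = 4; log2 differences -2.92 ± 0.371 and 3.98 ± 0.296, edgeR adjusted p = 4.17e-05 and 7.8e-05). The gelatinase Mmp9 rose from 1.21 to 5.73 CPM and the inhibitor Timp4 from 0.323 ± 0.0937 to 5.09 ± 5.31 CPM in that step (SD, n = 4; log2 difference 4.07, and 3.09 without 12wk replicate 4), while Mmp2, a stromal gelatinase, fell from 636 to 222 CPM (adjusted p = 0.00992, 0.00712 and 0.00762). In null ovaries Mmp12, macrophage elastase, rose from 0.0494 to 4.66 CPM between PND8 and 12wk (adjusted p = 0.00225), where the PND8 level is under the 3-count floor, so the size of the rise is not given. The summed level of 5 macrophage markers was 32.2 to 54.5 CPM at PND8 and 126 to 129 CPM at 12wk in wild type, beside the rise of Ctss; its part was not tested.

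Between genotypes edgeR called 0 genes of these 4 lists at any age. Among the 25 assembly genes, the number with an unadjusted p under 0.05 was 2 of 24 tested at E13.5, 9 of 25 at E18.5, 10 of 25 at PND8, and in adults 4 of 24, where 3.49%, 22.1%, 15% and 9.63% of all genes had one at these ages. For the cross-linking list the same counts were 0, 4, 2 and 0, for the receptors 0, 1, 1 and 2, and for turnover 1, 3, 5 and 1.

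Within the 10 genes, mean log2 levels over the 8 groups fell into courses that ran together. Pearson's r was 0.98 for Fbln5 and Mfap4, 0.97 for Fbln5 and Lox, 0.95 for Fbn1 and Fbn2, 0.94 for Fbn1 and Fbln1, and 0.92 for Loxl1 and Mfap2. For Fbln1 and Mfap2 it was -0.9 and for Fbn1 and Mfap2 -0.77. Pearson's r does not measure the size of a change, and the Fbln1 group means ran only from 165 to 240 CPM. For Eln the nearest member by r was Mfap5 at 0.82. These are descriptions of 8 group means, which share ages and libraries.

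Among 12958 genes with a mean of at least 2 CPM, those most like Eln in this measure were Adra1a (r = 0.979), Med12l (0.972), Ddb2 (0.966), Cftr (0.959) and Trank1 (0.958). Adra1a, an alpha-adrenergic receptor, averaged 0.207, 4.69, 5.63 and 0.177 CPM in wild type at the 4 ages in order. Trank1 averaged 11.1, 55, 72.7 and 13.9 CPM. Cftr, a chloride channel, averaged 1.45, 6.89, 7.78 and 2.98 CPM.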

How the data were processed

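Total RNA of 29 ovary cell samples was sequenced, and the titles gave each sample's group and replicate number. The authors deposited RSEM expected counts (estimates, often fractional) per Ensembl gene for all samples in 1 table. Per the submitters' processing notes the tools were Trim Galore, FastQC 0.11.5, STAR 2.5.2 and RSEM 1.3.0. Per the file headers the folder combined 2 projects, without saying which samples came from which. A difference between projects could therefore not be told apart from one of age or genotype. The genome build, annotation release, library kit and strandedness are not given in the sources used here. RSEM divides reads among similar genes, so values depend on that division.

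The counts were rounded to whole numbers (31.36% of nonzero values were not whole). Of 51912 gene IDs, 51633 had a symbol in a reference table. All 39 pairs of replicates within groups differed by more than sampling noise (chi-square per degree of freedom 13 to 285.4). None thus repeated the counts of another, and each was treated as 1 replicate. That check cannot show whether the samples came from separate animals. Tests used edgeR 4.0.16 in R 4.3.3: TMM scaling, genes kept by filterByExpr at a minimum count of 10 and total of 15, and the quasi-likelihood F test with robust fitting, on the 2 groups compared (all 29 samples for the interaction), with Benjamini-Hochberg adjustment over all genes tested and a threshold of 0.05. Genes under it are described as called, and the standard error is the log2 difference divided by the square root of F. The steps were tested on simulated counts with known changes. Levels are CPM with TMM factors over all samples, and per-kilobase values use the summed exon length of GENCODE M21 on GRCm38, an annotation that may differ from the one behind the counts (99.8% of genes had a length). Likeness is Pearson's r of mean log2 CPM (prior count 2) over the 8 groups.

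Named genes were all members, up to 3 called genes in each direction per comparison from the 4 pathway lists (mean of at least 2 CPM), Cdkn1b, and the 5 genes most like Eln. Members and lists were chosen with earlier results of these data known. Alternatives were DESeq2 1.42.0, RLE size factors, no filter, all groups in 1 fit, a replicate block and leaving out each library. Pairing was checked by correlating same-numbered libraries' deviations from group means. The rule of that check was met only in the null step from E13.5 to E18.5 (r from 0.105 to 0.208 over 3 pairs). There the block moved the count of members called by less than 1.5 times. The labels give no pairing, and so few weak correlations cannot show it either way.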

Additional observations from a re-analysis of the deposited data

Results flagged for a closer look

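Among 50 combinations of a member and a group of 4 libraries, 2 had a highest or lowest library set apart from the others by a gap above Dixon's 95% critical share of the whole range, where chance alone would give about 1 in 20. Fbn1 was at 1060 CPM in PND8 wild-type replicate 1, and the next library was at 684 CPM. Mfap5 was at 6.41 CPM in E13.5 wild-type replicate 4, and the next was at 1.85 CPM.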

How the results depend on the processing

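RLE size factors moved no count of members called by 1.5 times. Members called lower in null at E18.5 were 1, and 2 without the filter, 5 by DESeq2, and 0 to 3 over fits without 1 library. At PND8 they were 0, and 1 without the filter, 4 by DESeq2, and 0 to 4 without 1 library. In wild type from E18.5 to PND8, 2 were called higher, and 4 without the filter and 2 to 5 without 1 library, while 5 were lower and 3 with all groups in 1 fit. In null over that step 5 were lower, and 3 without the filter, 2 with all groups in 1 fit and 3 to 5 without 1 library. From PND8 to 12wk in null, 3 were lower, and 7 by DESeq2 and 6 with all groups in 1 fit. The interaction called 0, and 1 by DESeq2 and 0 to 1 without 1 library. The causes were not tested.

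With the replicate number as a block, members called lower at E18.5 were 3 and those called higher in wild type from E18.5 to PND8 were 4, and no other count of members moved by 1.5 times. Deviations of same-numbered libraries correlated at -0.094 to 0.16 in the genotype comparisons and at -0.123 to 0.183 in the steps other than that of null from E13.5 to E18.5. In none of these did every library correlate best with its own number. Correlations over so few pairs cannot settle whether same-numbered samples were paired. The block reversed Fbln1 at E13.5 (0.02), Fbn1 at 12wk (-0.08), Fbln1 from E13.5 to E18.5 in wild type (0.02) and null (0.01), and the difference of steps between genotypes for Fbn1 (0.1) and Fbln5 (-0.13) over that step and for Lox (-0.01) from E18.5 to PND8.

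Other reversals were Fbln1 at E13.5 with all groups in 1 fit (0.02), Fbln1 at E18.5 without the filter (0.03) and the difference of steps for Lox without the filter (0.00). Over fits without 1 library, genotype effects that changed sign ranged at E13.5 from -0.25 to 0.67 (Eln), -0.16 to 0.13 (Fbln1), -0.67 to 0.17 (Fbln5), -0.12 to 0.22 (Loxl1), -0.28 to 0.09 (Mfap2), -0.27 to 0.21 (Mfap4) and -0.94 to 0.17 (Mfap5). At E18.5 they ranged from -0.12 to 0.08 (Fbln1) and -0.25 to 0.05 (Lox), at PND8 from -0.4 to 0.07 (Fbn1), -0.17 to 0.07 (Fbn2), -0.47 to 0.00 (Fbln5) and -0.34 to 0.05 (Lox), and at 12wk from -0.08 to 0.18 (Fbn1). Fbln1 ranged from -0.19 to 0.12 in the first wild-type step, -0.11 to 0.07 in the first null step and -0.16 to 0.07 in the last. Differences of steps between genotypes ranged in the first from -0.25 to 0.08 (Fbn1), -0.18 to 0.17 (Fbln1), -0.45 to 0.43 (Fbln5) and -0.01 to 0.61 (Lox), in the second from -0.21 to 0.27 (Fbln5), -0.24 to 0.17 (Lox) and -0.51 to 0.04 (Loxl1), and in the last from -0.02 to 0.44 (Fbn1).

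Genes called between genotypes were 1 at E13.5 (65 by DESeq2, 59 with all groups), 814 at E18.5 (1681 by DESeq2, 246 to 1372 without 1 library), 62 at PND8 (813 by DESeq2, 258 without the filter, 0 with all groups, 8 with the block) and 2 at 12wk (326 by DESeq2, 68 with all groups, 12 without the filter, 10 with the block). The interaction called 164 (706 by DESeq2). Fetal libraries held fewer counts than postnatal ones, and 3 or 4 libraries per group limit each test.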
